A study of Mus musculus with 6 samples.

Results

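The genes described here encode replicative DNA polymerases and the factors that work with them at the replication fork: Pola1, Pola2, Prim1, Prim2, Pold1, Pole, Pcna, Lig1, Fen1 and Rfc3. They were chosen by gene symbol, with earlier results of these data known. All 10 were found once each among the 20893 genes of the table. Their transcripts were measured in mouse hearts with a germline knockout of Rbpms, labelled R1KO (3 libraries), and in wildtype hearts (3 libraries). All 6 libraries carry the strain label C57BL6/J, and the design text calls the controls littermates. It places the hearts at the neonatal stage, while the series title calls them embryonic. Ages, the deleted part of Rbpms and the animals behind each library are not stated in the labels, so the p-values reflect the spread among 6 libraries, which may be technical.

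Replication begins when primase lays down a short RNA primer that DNA polymerase alpha, held in the same complex, extends. The clamp loader then places the ring-shaped clamp PCNA on the primed template, and polymerases epsilon and delta copy the leading and the lagging strand. The lagging strand is made as Okazaki fragments, whose flaps are cut by FEN1 and whose nicks are sealed by DNA ligase 1. Genes of this machinery are largely transcribed in cycling cells, and heart muscle cells around birth leave the cell cycle.

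In knockout hearts Pola1, the catalytic subunit of polymerase alpha, fell to 0.551 of its wildtype level and was the 1 gene of the 10 past the threshold. Among all 14974 genes tested, 0.434% were called lower and 0.508% higher (limma, Benjamini-Hochberg adjusted p under 0.05). Of the other members, 8 had fitted log2 fold changes below 0, from -0.85 in Lig1 to -0.30 in Pold1, and none passed. Values below 0 were found in 9 of the 10, beside 50.2% of all genes tested. Pola2, the second subunit of polymerase alpha, differed from them in sign, with a log2 fold change of 0.09. The median over the 10 genes was -0.47, beside -0.0009 over all genes tested. In 7 of the 10 every knockout library lay below every wildtype library, where the same held for 10.9% of all genes. An unadjusted p under 0.05 with a lower knockout mean was found in 8 of the 10 by limma, against 7.86% of all genes. None of the 10 had one with a higher knockout mean, against 8.54%. Since the 10 were chosen with earlier results of these data known, these shares are a description with no test.

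Short stretches of promoter are shown for 3 members of a single complex whose values differed most: Pola1 and Prim1, with the smallest p-values of the 10, and Pola2, with the largest. Each line gives the 150 bases from -150 to -1 before the RefSeq start (build GRCm38.p6, 5′ to 3′ on the strand of the gene), and capitals mark matches to motifs of the E2F type.
Pola1, chrX:93632156-93632305, reverse strand: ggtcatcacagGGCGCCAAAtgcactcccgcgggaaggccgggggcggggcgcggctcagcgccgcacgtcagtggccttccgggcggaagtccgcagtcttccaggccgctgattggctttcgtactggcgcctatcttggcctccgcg
Prim1, chr10:128015065-128015214, forward strand: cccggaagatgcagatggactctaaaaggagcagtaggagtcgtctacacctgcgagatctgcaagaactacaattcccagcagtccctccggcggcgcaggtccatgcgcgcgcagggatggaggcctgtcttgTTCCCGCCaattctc
Pola2, chr19:5964207-5964356, reverse strand: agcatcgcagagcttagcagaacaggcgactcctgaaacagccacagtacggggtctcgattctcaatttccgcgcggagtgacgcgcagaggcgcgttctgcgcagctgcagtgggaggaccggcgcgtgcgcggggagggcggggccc

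E2F factors are transcription regulators of genes used in S phase, and 4 strings of letters of their type were searched on both strands: TTTCCCGC, TTTGGCGC, TTCCCGCC and TTGGCGCC. TTTCCCGC can overlap TTCCCGCC by 7 bases, and TTTGGCGC can overlap TTGGCGCC in the same way. Of the 10 genes 8 had windows in the promoter table, which runs from 250 bases before to 50 after each start, and 5 of the 8 held at least 1 of the strings: Pola1, Prim1, Pold1, Lig1 and Rfc3. They lay in 5 of these genes' 11 windows, beside 3.77% of all 32851 windows. In Pola1 a match ran from -139 to -132 and an overlapping one from -138 to -131, both on the opposite strand. In Prim1 the match ran from -15 to -8 on the strand of the gene, and the window of Pola2 held none of the 4. Log2 fold changes of the 5 genes with a string ran from -0.86 in Pola1 to -0.30 in Pold1. Those of the genes without one were -0.50 in Fen1, -0.34 in Pcna and 0.09 in Pola2. A link between the strings and the fold changes was not tested. CCAAT, the core of the NF-Y type, was found in Pola1, Prim1, Pcna and Rfc3, and in 37.4% of all windows. CCGCCC, a GC box, was found in 5 of the 8 genes, Pola2 among them, and in 35.7% of all windows, and TTTGAA, the CHR element, in Fen1 and in 17.9%. These are matches of letters and not measured sites.

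Each value is the authors' normalized read number, a count of reads multiplied by 1 factor per library and rounded. Dividing by the factors gave libraries of 4163230 to 5805783 reads, and the members rested on 55 to 436 reads per library. Rbpms, the targeted gene, was lower in every knockout library, with 375, 340 and 507 against 1182, 1176 and 1317. Cardiomyocyte markers such as Myh6, Tnnt2 and Actc1 were present in every library, with summed values of 30940 to 36470 over 12 genes. Knockout replicate 3 stood apart from the others: its 10 erythroid markers summed to 2207 against 749 to 959 in the other 5 libraries, and its 8 epicardial markers to 1013 against 1764 to 1974. Xist and Y-linked genes divided the libraries into 2 female ones, knockout replicate 3 and wildtype replicate 1, and 4 male ones.

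**Figure D1:**
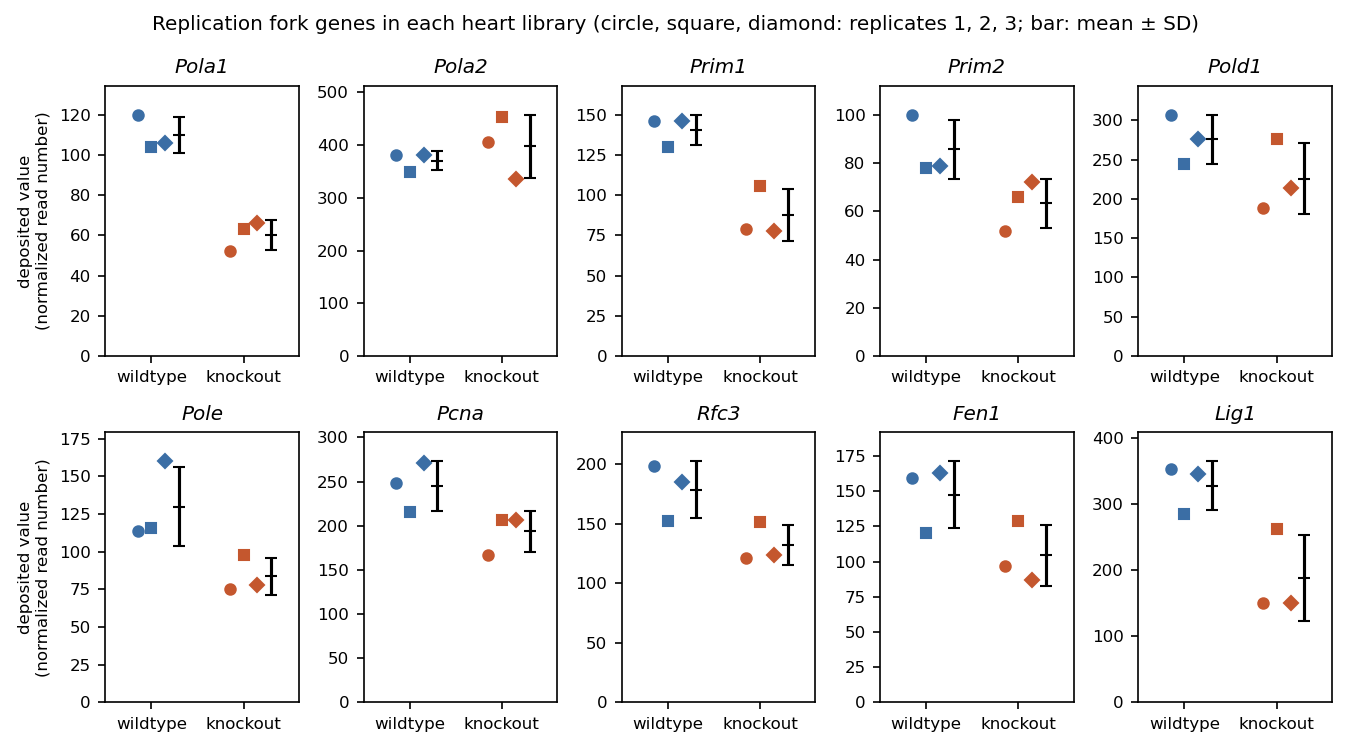
Deposited value (normalized read number, y axis from 0) of each of the 10 genes in the 3 wildtype (blue) and 3 knockout (orange) heart libraries, with circle, square and diamond for replicates 1, 2 and 3 and a bar for the mean ± SD. Pola1 has the knockout libraries at 52 to 66 and the wildtype libraries at 104 to 120, while the groups overlap in Pola2, Pold1 and Fen1.

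The complex of primase and polymerase alpha starts every new strand. In mm39 Pola1 lies on the reverse strand of chromosome X, between 92348373 and 92675761. Its values were 52, 63 and 66 in the knockout and 120, 104 and 106 in the wildtype libraries. The groups were far apart, and the highest knockout library lay well under the lowest wildtype one. The means were 60.3 ± 7.37 and 110 ± 8.72 (SD, n = 3 each). On the log2(value + 1) scale the change was -0.86 ± 0.16 (SE), with a 95% interval from -1.21 to -0.51 (limma, adjusted p = 0.0472). Pola1 missed the threshold when knockout replicate 1 was left out (limma, adjusted p = 0.142). The same held for leaving out wildtype replicate 1, 2 or 3 (0.268, 0.131 and 0.216). Its log2 fold changes in these fits, in that order, were -0.76, -0.80, -0.90 and -0.89. Few or no genes passed in them: 6, 3, 0 and 0 of all tested, beside 141 with every library. The adjusted p of Pola1 was 0.0334 and 0.00565 without knockout replicates 2 and 3, within 0.00565 to 0.268 over 17 alternatives.

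Prim1 encodes the catalytic subunit of primase and lies on chromosome 10. It stood at 79, 106 and 78 in knockout and at 146, 130 and 146 in wildtype hearts, with no overlap between the groups. On the log2 scale the difference was -0.69 ± 0.15 (SE; limma, adjusted p = 0.0733), so it missed the threshold with all libraries. Without knockout replicate 2, the highest of its group, it passed at an adjusted p of 0.0198, and without knockout replicate 3 at 0.0318 (limma). These fits called 1.59% and 2.55% of all genes lower. Prim2, the large regulatory subunit of primase, held 52, 66 and 72 against 100, 78 and 79. These groups also did not overlap, though wildtype replicates 2 and 3 lay only a little above the highest knockout library. The log2 fold change of Prim2 was -0.43, with a 95% interval from -0.85 to -0.02 (limma, adjusted p = 0.28).

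Pola2, the regulatory subunit that binds POLA1, did not share this pattern. Its knockout values of 406, 453 and 335 lay on both sides of the wildtype values of 381, 350 and 381. The log2 fold change was 0.09 with a 95% interval from -0.15 to 0.34 (limma, adjusted p = 0.722). This interval does not reach the fitted change of any other member, but it overlaps the intervals of Prim2, Pold1, Pcna, Fen1 and Rfc3. Apart from the ratios given next, differences between Pola2 and other members were not tested. Without knockout replicate 2 the log2 fold change of Pola2 was -0.01. No other gene of the table overlaps the span of Pola2 on chromosome 19, from 5990570 to 6014230.

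The proportions of transcripts within the complex were compared next. The ratio of the Pola2 value to the Pola1 value was 7.81, 7.19 and 5.08 in knockout and 3.17, 3.37 and 3.59 in wildtype libraries, without overlap. Its means were 6.69 ± 1.43 and 3.38 ± 0.21 (SD, n = 3 each), and a two-sided exact permutation test gave p = 0.1, the smallest that 3 against 3 allows. The ratio of Prim2 to Pola1 was 1.05 ± 0.05 against 0.78 ± 0.05 (n = 3 each, exact permutation p = 0.1). Prim1 to Pola1 and Prim2 to Prim1 gave p = 0.4 each in the same exact test. Adjusted over these 4 ratios, which were chosen after the values were seen, the p-values were 0.2 and 0.4.

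The elongating polymerases differed in how clearly their groups separated. Pole, the catalytic subunit of polymerase epsilon, held 75, 98 and 78 in knockout and 114, 116 and 160 in wildtype hearts. Every knockout library lay below every wildtype library, and wildtype replicate 3 was well above the other two. Its log2 fold change was -0.62 (95% interval from -1.02 to -0.22, limma, adjusted p = 0.133). Pold1, the catalytic subunit of polymerase delta, stood at 188, 276 and 214 against 307, 245 and 276. Here the groups overlapped, since knockout replicate 2 equalled wildtype replicate 3 and exceeded wildtype replicate 2. The log2 fold change of Pold1 was -0.30, with an interval from -0.63 to 0.03 (limma, adjusted p = 0.346).

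PCNA is the sliding clamp that tethers polymerases to DNA, and RFC3 is a small subunit of the loader that opens it. Pcna had values of 167, 207 and 207 in knockout and 248, 215 and 271 in wildtype libraries. The groups did not overlap, but the gap between knockout replicates 2 and 3 and wildtype replicate 2 was narrow. Its log2 fold change of -0.34 had a 95% interval from -0.61 to -0.06 (limma, adjusted p = 0.218). Rfc3 held 121, 151 and 124 against 198, 152 and 185, a separation of a single unit at its narrowest. The log2 fold change of Rfc3 was -0.43, with an interval from -0.74 to -0.11 (limma, adjusted p = 0.175).

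The genes that finish Okazaki fragments included the most variable member in the knockout. Lig1 held 150, 263 and 151 in knockout and 353, 286 and 346 in wildtype libraries. Knockout replicates 1 and 3 were nearly equal, and replicate 2 came close to the lowest wildtype library without reaching it. The means were 188 ± 65 and 328 ± 36.8 (SD, n = 3 each), and the log2 difference was -0.85 ± 0.22 (SE; limma, adjusted p = 0.13). Without knockout replicate 2 it passed, at a log2 fold change of -1.11 and an adjusted p of 0.00411 (limma). Fen1, the flap endonuclease, stood at 97, 129 and 87 against 159, 120 and 163, and here knockout replicate 2 exceeded wildtype replicate 2. Its log2 fold change was -0.50, with an interval from -0.91 to -0.09 (limma, adjusted p = 0.213).

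**Figure D2:**
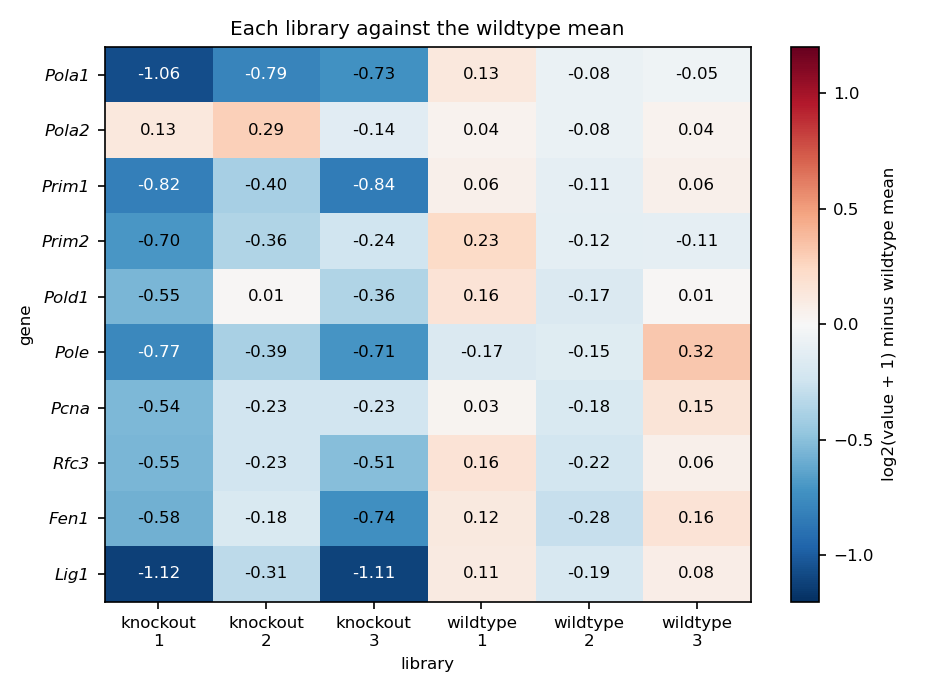
Difference in log2(value + 1) between each library (x axis) and the mean of the wildtype libraries for each of the 10 genes (y axis), with blue for lower and red for higher and the difference printed in each cell. Knockout replicates 1 and 3 are deep blue in most rows (Lig1 at -1.12 and -1.11), knockout replicate 2 is paler (-0.31), and the row of Pola2 runs from -0.14 to 0.29 in the knockout.

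The knockout libraries were not alike in these genes. Relative to the wildtype mean, the median over the 10 genes in log2 units was -0.64 in knockout replicate 1, -0.27 in replicate 2 and -0.61 in replicate 3. Replicate 2 was the highest knockout library in 8 of the 10 genes, counting ties, and replicate 1 the lowest in 7. Among the wildtype libraries the medians were 0.12, -0.16 and 0.06, and wildtype replicate 2 was the lowest in 9 of the 10. The closest approach of the groups was thus between knockout replicate 2 and wildtype replicate 2. Both are male libraries, and with a term for library sex the adjusted p of Pola1 was 0.0352 and it was again the 1 member called by limma, in a fit that called 0.675% of all genes lower.

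Levels can be compared between genes only per length, here as wildtype values per kilobase of exon (union of exons in GENCODE vM21, taken as lengths only). Pcna was the most abundant at 102 ± 11.7, followed by Lig1 at 76.9 ± 8.63 and Fen1 at 60.8 ± 9.81 (SD, n = 3 each). Then came Pold1 at 56.8 ± 6.38, Rfc3 at 49.4 ± 6.57, Pola2 at 44.7 ± 2.16 and Prim1 at 36.4 ± 2.39. Prim2 at 14.4 ± 2.09, Pola1 at 12.5 ± 0.989 and Pole at 11.6 ± 2.33 were lowest per kilobase. Between neighbours in this order from Lig1 to Pola2, and from Prim2 to Pole, the ranges of the mean ± 1 SD overlapped. Those ranges did not overlap between Pcna and Lig1, Pola2 and Prim1, or Prim1 and Prim2.

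Some members share their place with other transcripts, and whether the authors counted by strand is not stated in the labels. The long noncoding gene Gm10143 lies opposite Fen1 over 3253 bases and held 8, 19 and 9 in knockout and 21, 14 and 22 in wildtype libraries. Gm15792, opposite Pole, held 0 in every knockout library and 3, 2 and 2 in the wildtype. AV099323 overlaps Pcna by 512 bases with values of 16 to 33, Zswim9 overlaps Lig1 by 1409 bases, and Tmem258 overlaps Fen1 by 156 bases. A processed pseudogene, Pcna-ps2, held 2 to 6, beside 167 to 271 in Pcna.

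A further list held 32 fork genes: the remaining subunits of these enzymes and other factors such as replication protein A, chromatin assembly factor 1 and fork protection proteins. All were tested, and 1 was called lower and none higher by limma. Before adjustment (p under 0.05) 17 were lower and 0 higher, beside 7.86% and 8.54% of all genes. The median of their log2 fold changes was -0.34. The 1 was Clspn, which encodes claspin, a mediator of the replication checkpoint that travels with the fork. Clspn fell from 124 ± 8.39 to 61.7 ± 10.6 (SD, n = 3 each), with 52, 73 and 60 in knockout and 134, 120 and 119 in wildtype libraries. This was a log2 change of -1.01 ± 0.16 (SE; limma, adjusted p = 0.0317). The call was lost without knockout replicate 1 (0.108) and without wildtype replicates 1, 2 and 3 (0.21, 0.111 and 0.201), within 0.00497 to 0.21 over 17 alternatives. In this order, the fits that lost it called 6, 3, 0 and 0 genes in all, against 141 with all libraries. Without knockout replicate 2, 9 of the 32 were called lower, and without knockout replicate 3, 6 were, in fits that called 1.59% and 2.55% of all genes lower against 0.434% with all libraries.

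The subunits of each enzyme are given side by side, and the differences between their fold changes were not tested. In polymerase delta, Pold3 held 216, 228 and 211 against 303, 284 and 284 (log2 -0.41, limma adjusted p = 0.0555), while Pold2 and Pold4 had log2 fold changes of -0.15 and -0.14. The groups did not overlap in Pold3 and overlapped in the catalytic subunit Pold1, with 95% intervals of the log2 fold change from -0.59 to -0.23 and from -0.63 to 0.03. In polymerase epsilon, Pole2 had -0.60 with an interval from -1.48 to 0.28, Pole4 had -0.34 and Pole3 -0.03. Pole3 and Pole4 are histone-fold proteins. In the clamp loader, the small subunits Rfc5, Rfc4 and Rfc2 had -0.51, -0.41 and -0.25, and the large subunit Rfc1 had -0.13. None of these subunits passed the threshold in limma.

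**Figure D3:**
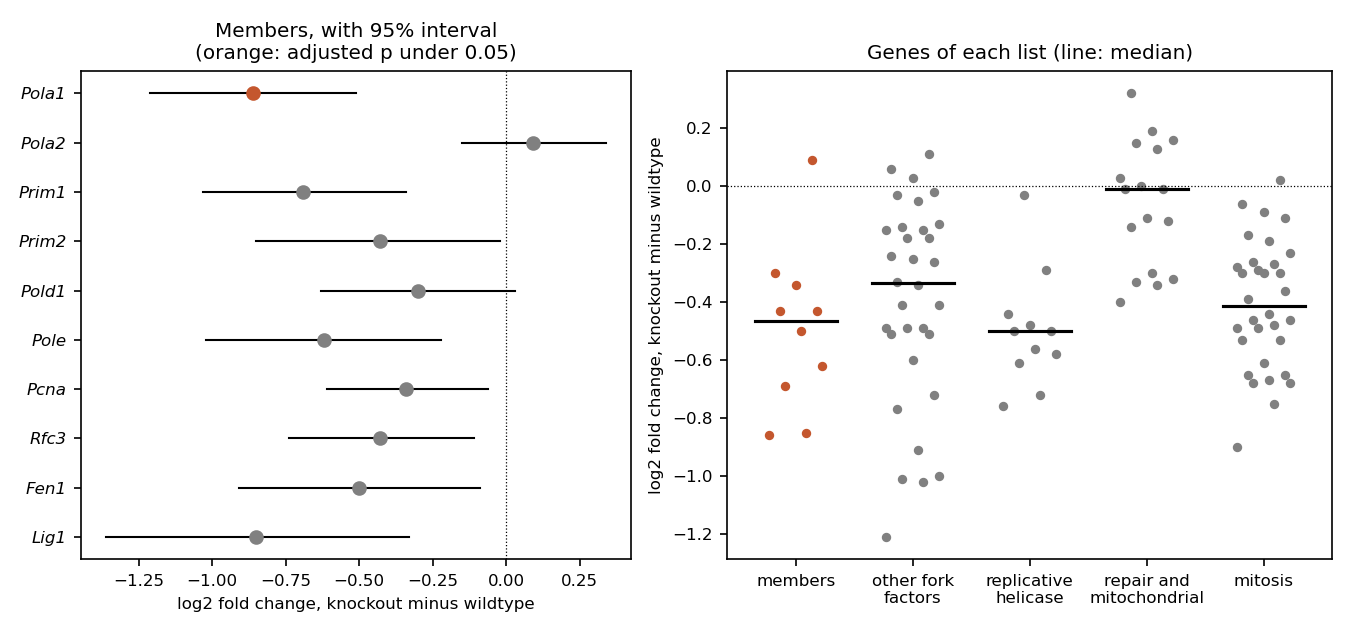
Left, log2 fold change (x axis, knockout minus wildtype) of the 10 genes with 95% intervals from limma, where Pola1 alone is drawn in orange as past the threshold. Right, log2 fold changes (y axis) of single genes in the 10 members and 4 other lists, with a line at each median: -0.47, -0.34, -0.50, -0.01 and -0.42 from left to right.

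Polymerases and ligases that act in DNA repair, lesion bypass or mitochondria have the same chemistry but are not tied to S phase in the same way. A list of 18 genes held such enzymes, the mitochondrial RNA polymerase gene Polrmt and accessory factors such as Polg2, Mad2l2 and Xrcc1. Of the 18 genes 17 were tested and none was called by limma. Before adjustment (p under 0.05) 1 was lower and 0 higher, beside 7.86% and 8.54% of all genes. The median of their log2 fold changes was -0.01, with 11 below 0 and 6 above. The ligases can be set side by side: Lig3, of mitochondria and base excision repair, stood at 503 ± 27.3 against 491 ± 25.3 (SD, n = 3 each). Lig4, of end joining, stood at 119 ± 35.9 against 126 ± 13.8. Their log2 fold changes were 0.03 and -0.11 where Lig1 had -0.85, and the difference between ligases was not tested. The mitochondrial polymerase gene Polg stood at 708, 687 and 887 in knockout and 642, 674 and 670 in wildtype libraries (log2 0.19, limma adjusted p = 0.359).

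The replicative helicase unwinds the template ahead of these polymerases. Its 11 genes of MCM, CDC45 and GINS all had fold changes below 0, beside 50.2% of all genes. None was called by limma, and 6 were lower and 0 higher at an unadjusted p under 0.05, beside 7.86% and 8.54% of all genes. The medians of the helicase genes against the wildtype mean in the knockout, by replicate number, were -0.68, -0.11 and -0.72. Of 32 mitosis genes none was called by limma, and 3 were lower and 0 higher at an unadjusted p under 0.05, beside 7.86% and 8.54% of all genes. Their fitted fold changes were below 0 in 31 of 32, with a median of -0.42, close to the -0.47 of the 10 members. By library, however, the medians of the mitosis genes were -0.88, -0.65 and 0.38 in knockout replicates 1 to 3. In knockout replicate 3 the fork genes were therefore low while mitosis genes were above the wildtype mean, and in replicate 2 the fork genes were nearest to the wildtype mean while mitosis genes were low. Replicate 3 is also the library with the erythroid sum of 2207, and the part of that difference in its mitosis values was not tested.

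**Figure D4:**
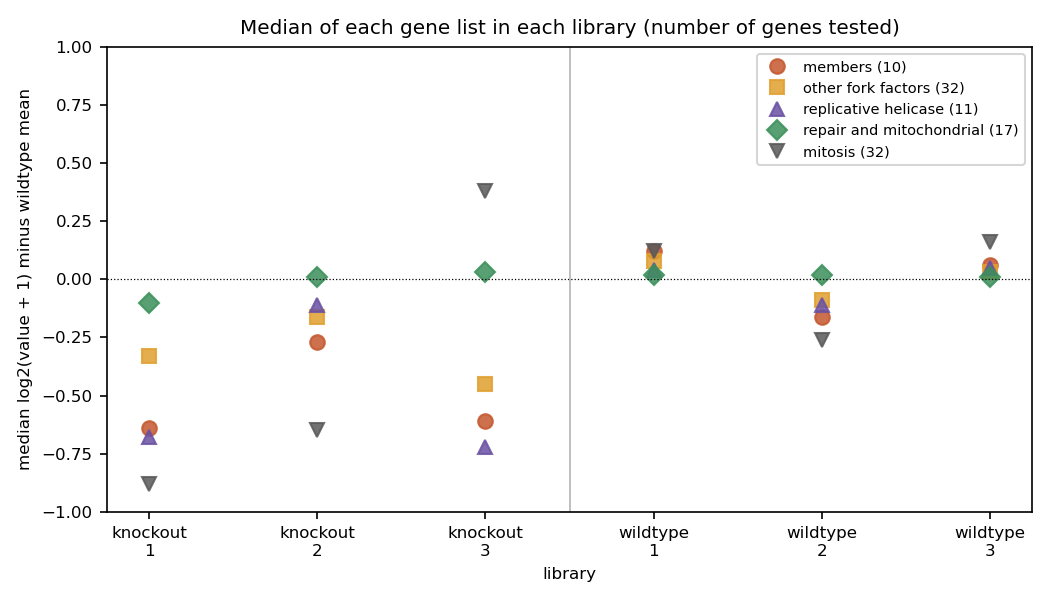
Median difference in log2(value + 1) from the wildtype mean (y axis) over the genes of 5 lists in each library (x axis). The 10 members stand at -0.64, -0.27 and -0.61 in the knockout libraries, and mitosis genes at -0.88, -0.65 and 0.38.

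Values for the cell types of the heart were set beside these differences. In bulk tissue, fewer cells of a type and less RNA per cell cannot be told apart. Summed over their lists, endothelial markers ran from 10593 to 11064 in knockout and from 9813 to 10241 in wildtype libraries, with 8 of 10 fold changes above 0. Leukocyte markers ran from 1688 to 2058 against 1485 to 1630, with 7 of 10 above 0. The ranges of the 2 groups did not overlap in these 2 sums. The leukocyte markers did not all share this difference, since 3 of the 10 had fold changes below 0. Lyve1 had the largest change, with 559, 379 and 545 in knockout against 265, 321 and 251 in wildtype libraries. Cd68 went the other way, with 86, 85 and 73 against 95, 101 and 101. Sums of the 12 cardiomyocyte markers ran from 30940 to 35229 against 32751 to 36470, and those of the 10 fibroblast markers from 15823 to 18940 against 16764 to 18697. Smooth muscle and pericyte markers ran from 4975 to 5466 against 5162 to 5685. Within that list the contractile genes Myh11, Acta2 and Cnn1 had every knockout library below every wildtype library, as did 10.9% of all genes tested. These 3 stood at 0.657, 0.798 and 0.398 of wildtype (limma, adjusted p = 0.057, 0.11 and 0.156). The contractile gene Tagln did not share this, with 246, 362 and 512 in knockout against 381, 343 and 373 in wildtype libraries. Groups also overlapped in Rgs5, Pdgfrb and Kcnj8, and Notch3 had every knockout library above every wildtype library. No marker of the 7 lists, erythroid and epicardial included, was at 0 in any library. Of their 65 tested genes none was called by limma. At an unadjusted p under 0.05, 6 were lower and 10 higher, beside 7.86% and 8.54% of all genes. Without knockout replicate 3, in which the erythroid and epicardial sums stood apart, Pola1 and Prim1 were called lower, in a fit that called 2.55% of all genes lower, and the median over the 10 fork genes was -0.46. The part of cell composition in these differences was not tested.

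The genes whose pattern over the 6 libraries came nearest to the mean of the 10 were, among 11120 outside every list used here, Ung, Nasp, Wdr90, Pcp4l1 and Col26a1. Likeness was the root mean square difference between their log2 values relative to the wildtype mean, which was 0.03 for Ung, 0.07 for Nasp and Wdr90, and 0.08 for Pcp4l1 and Col26a1, beside a median of 0.40 over the 11120. Among the members it was lowest in Rfc3 at 0.06 and highest in Pola2 at 0.43. UNG removes uracil from DNA, and NASP is a histone chaperone. Ung held 125, 160 and 129 in knockout and 197, 174 and 199 in wildtype libraries. Nasp held 466, 556 and 432 against 721, 627 and 680, and Pcp4l1 443, 523 and 434 against 688, 633 and 733. These genes were picked for the members' pattern, which fixes the direction of their difference, so their values are a description with no test.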

How the data were processed

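Stranded mRNA libraries were sequenced as single-end reads of 72 bp from 2 µg of RNA, per the labels' protocols. The submitters' processing notes name Trimmomatic 0.39, STAR 2.7.11a, Picard 3.0.0, featureCounts 2.0.4, DESeq2 1.36.0 and build mm39, without roles or order. The deposited values are a score: whole numbers that the authors scaled per library and rounded, as read from values that were missing or doubled at regular steps below 400. Estimated factors (0.9371, 1.0384, 0.8524, 1.0422, 0.9568 and 1.1798 for knockout, then wildtype replicates 1 to 3) gave the read totals, and in libraries with factors under 1, 7.01% to 30.12% of values fit 2 read numbers.

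Genes that reached a value of 10 in 3 or more libraries (14974) entered 1 fit of log2(value + 1) with intensity trend, robust moderation and no covariate (limma 3.58.1, statmod 1.5.0, R 4.3.3). Benjamini-Hochberg adjustment covered all of them, with a threshold of 0.05. The script was tested on simulated data. Fold changes are on that log2 scale, which understates changes of low genes. All members are named, and of other lists the genes past the threshold. The remaining subunits of the same enzymes, the other ligases and Polg were added after the values were seen. The 5 nearest genes have a mean value of at least 50 and no predicted name. The members and lists were chosen with earlier results of these data known. Exon lengths matched 96.5% of genes by identifier. Promoters are RefSeq's, and protein motifs were not searched. Alternatives covered scaling, pseudocount, filter, moderation, voom, the replicate block, library sex and each library left out.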

Additional observations from a re-analysis of the deposited data

How the results depend on the processing

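The median log2 fold change of the 10 fork genes stayed between -0.60 and -0.39 over 17 alternatives, within 1 SD (0.20) of the knockout libraries' medians. The number called lower (1, Pola1) was 0 with a filter at 50, without trend and robust moderation, with voom on the values and with voom on recovered reads (an alternative chosen after seeing the data), where the adjusted p of Pola1 was 0.0515, 0.078, 0.0512 and 0.0531 and 8, 8, 8 and 9 members had an unadjusted p under 0.05. In these fits, in the same order, 2044, 2315, 2468 and 2479 genes had such a p in either direction, of 11783, 14974, 14974 and 15029 tested. With 1 library left out the number of members called lower ran from 0 to 3. It was 0 without knockout replicate 1 and each wildtype replicate, fits with 6, 3, 0 and 0 called genes in all. There limma gave 5, 4, 7 and 4 members lower at an unadjusted p under 0.05. Over all genes tested, 1882, 1446, 2145 and 1823 had such a p in either direction. The number of members called lower was 3 without knockout replicate 2 and 2 without knockout replicate 3, fits that called 1.59% and 2.55% of all genes lower. The number of other fork genes called lower (1) was 2 with a pseudocount of 5 and with a term for library sex, 3 without a filter, 0 without trend and robust moderation, and 0 to 9 with 1 library left out. The sign of the Pola2 fold change reversed, to -0.01, without knockout replicate 2, and ran up to 0.21 without other libraries. No fit called a member or another fork gene higher.

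With the replicate number as a block, 0 members and 0 other fork genes were called lower, and 23 genes in all were called against 141. In that fit 7 members were lower at an unadjusted p under 0.05, and 2085 of all 14974 genes had such a p in either direction. The labels do not say whether the replicate numbers pair the samples. Same-numbered libraries had deviations correlated at -0.169, -0.111 and -0.13, and no library correlated best with its own number. Deviations from the mean of only 3 libraries a group cannot decide whether the numbers pair them. The share of called genes that were higher was 53.9% and became 33.3% without trend and robust moderation, 38.9% with voom on the values and 37.0% with voom on recovered reads. Over all genes the count of calls was 83 with the filter at 50, 218 without a filter, 93 with upper quartile scaling, 223 with a term for sex, 24 without trend and robust moderation, 72 and 73 with voom, and 0 to 703 with 1 library left out. The causes were not tested. With 55 to 436 reads per member and library, counting error adds to the spread between 3 libraries a group.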
